A study of Homo sapiens with 6 samples.

Results

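Chemokine genes and feedback genes of the NF-kB pathway were examined in HepG2-hCAR cells by RNA sequencing. The rule named 10 genes by symbol, CXCL8, CXCL1, CCL20, NFKBIA, TNFAIP3, BIRC3, NFKB1, NFKB2, RELB and IRF1, and took their rows from a table of 11456 protein-coding gene symbols. Rows were found for 9 of the 10, and of CXCL1 only the promoter was analysed here. The genes were chosen with their doxycycline and vehicle values already known, CXCL8 for being higher and CCL20 for being lower, so their differences are given as a description, and no p-value is given for them.

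HepG2-hCAR is 1 clone of the human liver carcinoma line HepG2 and descends from 1 cell. A lentiviral vector (pCW57-GFP-2A-MCS) gave it a doxycycline-inducible human NR1I3 cDNA, which encodes CAR, a nuclear receptor of liver, and puromycin selected the cells that carried it. The doxycycline group (3 libraries) received 1 µg/ml doxycycline for 72 h, and the vehicle group (3 libraries) received vehicle for the same time. Both groups carry the inducible cDNA, and no library had doxycycline without it, so what the antibiotic did and what the receptor did cannot be told apart. Whether each library had its own culture is not stated, so the spread behind each p-value may be technical.

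NF-kB is a family of dimeric transcription factors that IkB proteins hold in the cytoplasm until the IkB kinase (IKK) marks IkB for degradation, as happens after tumour necrosis factor or interleukin 1 binds its receptor. Its targets include chemokines, the secreted proteins that attract leukocytes, and inhibitors that switch the pathway off again, among them IkBα itself (NFKBIA) and the ubiquitin-editing protein A20 (TNFAIP3). Hepatocytes respond to these cytokines with chemokines and acute-phase proteins.

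The promoters of the genes that set the contrast and of a pair of feedback inhibitors are shown first, since all are textbook NF-kB targets and their transcripts differed in direction. Each sequence is the RefSeq gene strand of GRCh38.p14 from 250 bases before the start site to 50 bases after it. Capitals mark the NF-kB consensus on either strand, or, in CXCL8, the shorter motif GGNNNTTCC, which overlaps the consensus in many promoters.
CXCL8: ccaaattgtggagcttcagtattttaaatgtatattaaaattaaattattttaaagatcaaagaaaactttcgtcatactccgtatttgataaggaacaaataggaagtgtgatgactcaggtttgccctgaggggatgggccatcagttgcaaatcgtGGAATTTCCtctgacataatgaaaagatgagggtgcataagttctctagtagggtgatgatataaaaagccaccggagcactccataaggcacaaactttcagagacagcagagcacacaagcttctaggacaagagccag
CCL20: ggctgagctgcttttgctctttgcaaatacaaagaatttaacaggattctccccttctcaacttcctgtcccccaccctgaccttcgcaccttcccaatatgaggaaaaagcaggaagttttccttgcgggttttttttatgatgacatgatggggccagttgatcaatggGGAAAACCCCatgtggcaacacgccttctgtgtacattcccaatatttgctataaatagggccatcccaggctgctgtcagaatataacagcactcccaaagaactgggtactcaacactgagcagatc
NFKBIA: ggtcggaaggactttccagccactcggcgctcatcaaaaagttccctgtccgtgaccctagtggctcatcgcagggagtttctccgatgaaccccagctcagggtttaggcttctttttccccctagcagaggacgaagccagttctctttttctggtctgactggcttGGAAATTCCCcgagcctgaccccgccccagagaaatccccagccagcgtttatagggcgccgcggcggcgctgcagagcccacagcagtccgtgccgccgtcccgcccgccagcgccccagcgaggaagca
TNFAIP3: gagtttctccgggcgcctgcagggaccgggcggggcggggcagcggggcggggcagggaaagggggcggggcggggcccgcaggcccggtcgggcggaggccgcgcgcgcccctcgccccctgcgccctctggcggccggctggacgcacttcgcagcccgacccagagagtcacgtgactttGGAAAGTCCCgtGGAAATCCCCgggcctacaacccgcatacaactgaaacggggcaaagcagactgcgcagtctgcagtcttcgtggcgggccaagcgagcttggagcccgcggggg
These windows are chr4:73740319-73740618 (plus strand), chr2:227813592-227813891 (plus), chr14:35404700-35404999 (minus) and chr6:137867009-137867308 (plus).

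The marked match began 91 bases before the start site in CXCL8, 79 bases before it in CCL20 and 81 bases before it in NFKBIA, and the TNFAIP3 promoter held matches at 67 and 55 bases. Promoters were found in RefSeq for 9 of the 10 genes, with CXCL1 included and RELB being the exception. They are thus not the same 9 genes as those with expression values. NFKB1 and NFKB2 have several start sites, which made 12 windows. The NF-kB consensus was in a window of 8 of the 9 genes with a promoter, against 11.3% of 34796 promoters of the same length. The genes were chosen as chemokine and NF-kB feedback genes, so the choice itself favours a match and nothing is read from the count. Here and below a gene counts if any of its windows matched, while the share of all promoters counts each window. The measures are therefore not alike, and NFKB1 and NFKB2 each also had a window with neither NF-kB motif. GGNNNTTCC was also in 8 of 9, against 6968 of the 34796 promoters, and each of the 9 genes had at least the consensus or GGNNNTTCC. The AP-1 motif TGANTCA was found in CXCL8 alone of the 9, beginning 137 bases before its start site, and in 7.73% of all promoters. TATAAA, searched like the others on both strands, was in CXCL8, CCL20 and NFKBIA and in 11.6% of all promoters, and the C/EBP motif TTGCNNAA was in none of the 9 and in 10.5% of all. The CXCL8 and CCL20 windows printed above do hold TTGCAAAT, which differs from that motif in its last letter. The lack of a match is thus to these exact letters and does not show that a C/EBP site is absent. CCL20 (lower), NFKBIA (higher) and TNFAIP3 (level) thus all carried the consensus, and a match is a description of the letters, not of binding.

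The libraries had FPKM sums of 204318 to 209372, and since FPKM (fragments per transcript length and per mapped total) is already scaled and no counts were used here, the depth is unknown. NR1I3 was at 331, 317 and 316 FPKM in the doxycycline libraries, against 3.15, 3.01 and 3.56 FPKM in the vehicle libraries, which fits the labels. Hepatocyte markers were all listed, 8 of 8, and 6 of them fell and none rose, where 13.6% of all genes tested fell and 15.2% rose, with APOB at 396 to 472 FPKM in doxycycline and 804 to 847 FPKM in vehicle cells, although albumin (ALB) was at only 0.272 to 0.461 FPKM in doxycycline and 1.77 to 1.93 FPKM in vehicle cells. Of 10 endothelial or mesenchymal markers 2 were in the table, 1 of which rose and 1 fell, and their FPKM summed to 16.9 to 18.3 in doxycycline and 19.1 to 20.2 in vehicle cells. Of 10 leukocyte markers 4 were in the table, and of the 3 tested 2 fell and none rose. Their FPKM summed to 264 to 278 in doxycycline and 545 to 588 in vehicle cells, nearly all of it LYZ, the gene of lysozyme, while the general leukocyte marker PTPRC was not among the listed genes. The monocyte receptor gene CD14, which hepatocytes also express, was at 1.85 to 2.00 FPKM in doxycycline and 0.0347 to 0.0853 FPKM in vehicle libraries, and the part of these marker changes in the chemokine values was not tested.

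The 2 chemokine genes differed in opposite directions. CXCL8 encodes interleukin 8, which draws neutrophils through the receptors CXCR1 and CXCR2. The gene (ENSG00000169429.10_2) lies on chromosome 4 of GRCh37 at 74606223 to 74609433 (plus strand). CXCL8 was at 10.8, 8.79 and 8.44 FPKM in the doxycycline libraries, against 1.58, 2.07 and 1.31 FPKM in the vehicle libraries. The lowest doxycycline library was far above the highest vehicle library, and replicate 1 stood highest among the doxycycline libraries. The means were 9.33 ± 1.26 and 1.65 ± 0.387 FPKM (doxycycline and vehicle, SD, n = 3 each), a ratio of 5.65 and a log2 difference of 1.96 (SE 0.16) on the log2(FPKM + 1) scale used throughout. In bulk RNA, more or fewer expressing cells and more or less mRNA per cell cannot be told apart. By the log2 difference CXCL8 had the 10th largest increase of 10469 genes tested.

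CCL20, whose product attracts CCR6-bearing lymphocytes and dendritic cells (ENSG00000115009.11_2), lies on chromosome 2 at 228678558 to 228682280 (plus strand). CCL20 was at 33.1, 30.3 and 31.9 FPKM with doxycycline, against 117, 111 and 115 FPKM with vehicle. The groups were widely separated, and the libraries of each group lay close together, with a coefficient of variation of 4.51% in the doxycycline and 2.74% in the vehicle group. Mean levels were 31.8 ± 1.43 FPKM with doxycycline and 114 ± 3.13 FPKM with vehicle, 3.60-fold lower with doxycycline (log2 difference -1.82, SE 0.04). Its decrease ranked 15th of all genes tested.

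CCL20 remained the more abundant of the 2 transcripts in every library. Within a library there were 3.07, 3.44 and 3.78 times as much CCL20 as CXCL8 in the doxycycline group, against 74.0, 53.5 and 87.7 times as much in the vehicle group. The sum of both was 43.9, 39.04 and 40.3 FPKM with doxycycline, against 119, 113 and 116 FPKM with vehicle. The summed chemokine level was thus lower with doxycycline in all libraries, without overlap.

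**Figure D1:**
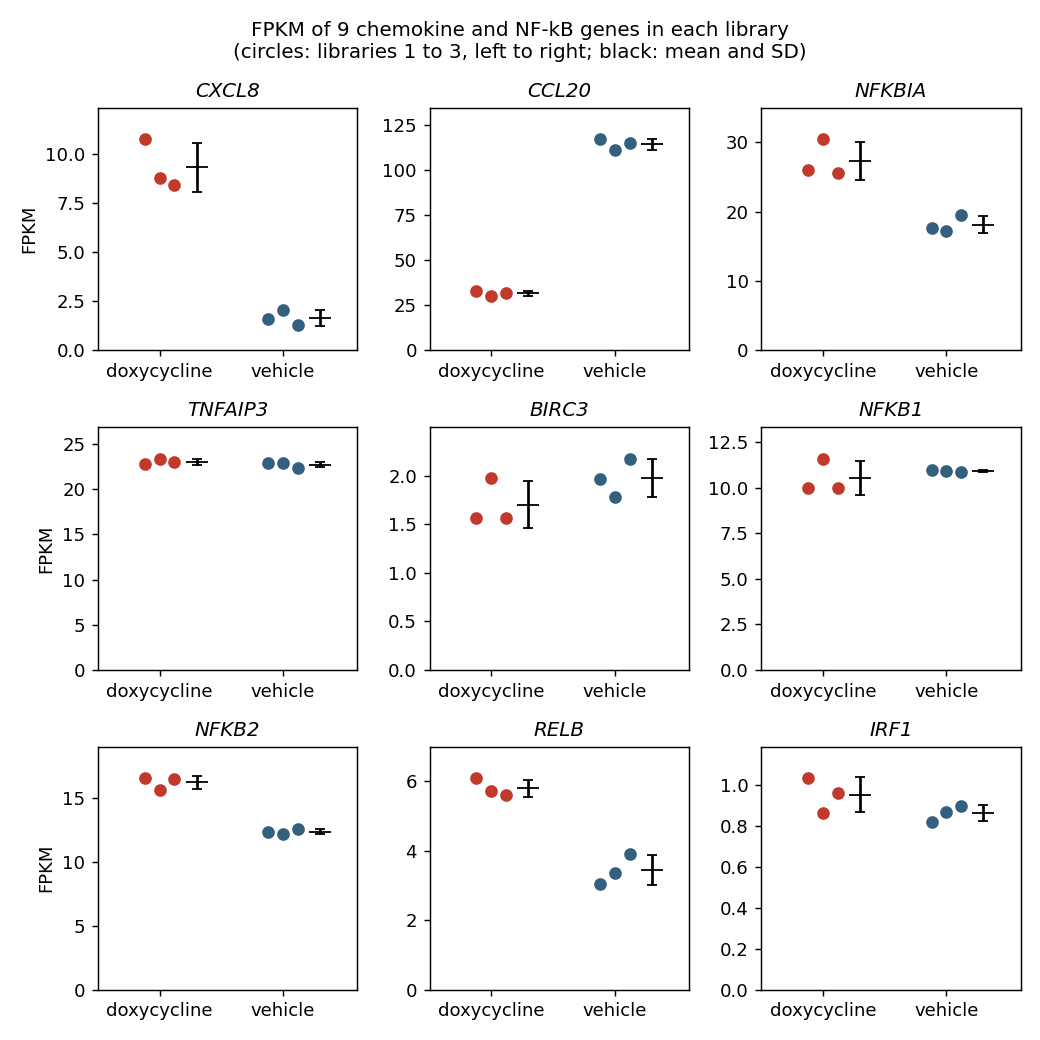
FPKM (vertical axes, from 0) of the 9 listed genes in each doxycycline (left, red) and vehicle (right, blue) library, with mean and SD (n = 3) in black. CXCL8 stands at 8.44 to 10.8 FPKM in doxycycline and 1.31 to 2.07 FPKM in vehicle libraries, CCL20 at 30.3 to 33.1 FPKM in doxycycline and 111 to 117 FPKM in vehicle libraries, and TNFAIP3 at 22.7 to 23.3 FPKM in doxycycline and 22.3 to 22.9 FPKM in vehicle libraries.

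Of the feedback inhibitors, NFKBIA was higher with doxycycline while TNFAIP3 and BIRC3 overlapped between the groups. NFKBIA encodes IkBα, the inhibitor that NF-kB itself induces (chromosome 14, 35870717 to 35873955, minus strand). Its values were 26.0, 30.5 and 25.6 FPKM in doxycycline libraries, against 17.6, 17.2 and 19.5 FPKM in vehicle libraries. The groups did not overlap, and doxycycline replicate 2 was the highest. The ratio of the means, 27.4 ± 2.70 with doxycycline over 18.1 ± 1.23 FPKM with vehicle, was 1.51 (log2 difference 0.56, SE 0.09).

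TNFAIP3 encodes A20, which removes activating ubiquitin chains from RIPK1 and other signalling proteins (chromosome 6, 138188325 to 138204449, plus strand). TNFAIP3 stood at 22.7, 23.3 and 22.9 FPKM with doxycycline and at 22.9, 22.8 and 22.3 FPKM with vehicle. The values interleave, and the coefficient of variation was 1.36% in the doxycycline and 1.36% in the vehicle group. The log2 difference was 0.02 (SE 0.02), the smallest in size among the 9 genes.

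BIRC3 encodes cIAP2, a ubiquitin ligase that joins receptor complexes and restrains the non-canonical pathway (chromosome 11, 102188181 to 102210134, plus strand). The doxycycline libraries had 1.56, 1.98 and 1.56 FPKM of BIRC3, against 1.96, 1.78 and 2.17 FPKM in the vehicle libraries. Doxycycline replicate 2 lay within the vehicle range, so the groups overlapped, with means of 1.70 ± 0.242 and 1.97 ± 0.196 FPKM (doxycycline and vehicle, SD, n = 3 each).

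Among the subunits, NFKB2 and RELB, which pair as p52 and RelB in the non-canonical arm of the pathway, were higher with doxycycline. NFKB1 and its product p50, the usual partner of RelA, belong to the canonical arm. NFKB2 (chromosome 10, 104153867 to 104162286, plus strand) was at 16.6, 15.7 and 16.5 FPKM with doxycycline, against 12.4, 12.2 and 12.6 FPKM with vehicle. Its groups were apart by more than the spread within either, at a ratio of 1.31 (log2 difference 0.37, SE 0.03).

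RELB (chromosome 19, 45504688 to 45541456, plus strand) had 6.08, 5.73 and 5.60 FPKM in doxycycline libraries, against 3.04, 3.37 and 3.89 FPKM in vehicle libraries. The groups did not overlap, and the ratio of means was 1.69 (5.80 ± 0.249 with doxycycline, 3.43 ± 0.432 FPKM with vehicle, log2 difference 0.62, SE 0.09).

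NFKB1 (chromosome 4, 103422486 to 103538459, plus strand) was at 9.97, 11.6 and 9.96 FPKM with doxycycline and 10.97, 10.9 and 10.9 FPKM with vehicle. Doxycycline replicate 2 was above every vehicle library and the other 2 were below, so the groups overlapped. The ratio of NFKB2 to NFKB1 within a library was 1.66, 1.36 and 1.66 in the doxycycline group, against 1.13, 1.12 and 1.16 in the vehicle group. The lower doxycycline ratio came from replicate 2, where NFKB1 was highest and NFKB2 lowest of the group.

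IRF1, an interferon-induced transcription factor that NF-kB also activates (chromosome 5, 131817301 to 131826490, minus strand), was the lowest of the 9 genes in both groups. It was at 1.03, 0.865 and 0.964 FPKM with doxycycline and at 0.821, 0.871 and 0.899 FPKM with vehicle. The groups overlapped, the mean over all libraries was 0.909 FPKM, and IRF1 was the listed member below the minimum mean of 1 FPKM set for testing. The locus of IRF1 overlaps that of another listed gene on the opposite strand, the other 8 loci overlap no listed gene, and whether the authors counted by strand is not given in the sources used here.

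Over the whole table, limma on log2(FPKM + 1) with a Benjamini-Hochberg adjusted p below 0.05 called 28.8% of the 10469 genes tested, 15.2% higher with doxycycline and 13.6% lower. Of the 8 chemokine and feedback genes tested, 5 were past that threshold, namely CXCL8, NFKBIA, NFKB2 and RELB higher and CCL20 lower. The libraries of both groups were fully separated in those same 5, and in 47.1% of the genes tested. Because the genes were chosen with this contrast known, these counts only describe the choice and nothing is read from them.

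In the doxycycline group the order of mean levels was CCL20, NFKBIA, TNFAIP3, NFKB2, NFKB1, CXCL8, RELB, BIRC3 and IRF1. Neighbours whose library values overlapped in that order were CCL20 with NFKBIA and NFKB1 with CXCL8. In the vehicle group it ran CCL20, TNFAIP3, NFKBIA, NFKB2, NFKB1, RELB, BIRC3, CXCL8 and IRF1, with overlap between BIRC3 and CXCL8 only. CXCL8 thus stood sixth with doxycycline and eighth with vehicle, and its mean exceeded that of 60.5% of tested genes with doxycycline and of 8.37% with vehicle. For CCL20 the corresponding shares were 89.7% with doxycycline and 98.1% with vehicle.

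**Figure D2:**
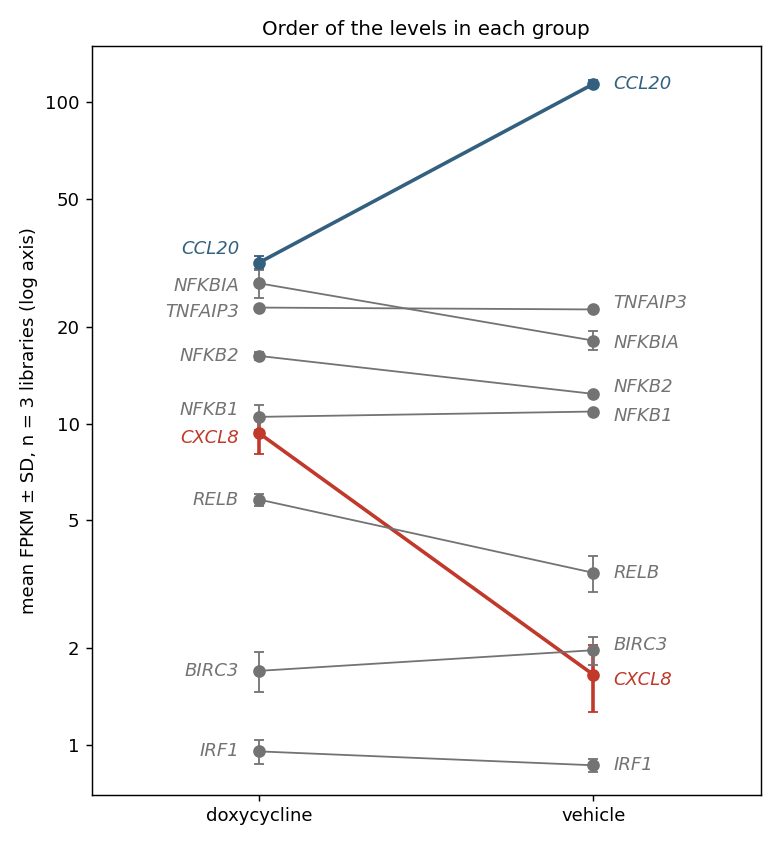
Mean FPKM ± SD (log axis, n = 3 libraries per group) of the 9 genes with doxycycline (left) and vehicle (right), joined by gene. CCL20 has 31.8 FPKM with doxycycline and 114 FPKM with vehicle, next to NFKBIA with doxycycline and far above all others with vehicle, and CXCL8 has 9.33 FPKM with doxycycline and 1.65 FPKM with vehicle, near NFKB1 with doxycycline and near BIRC3 with vehicle.

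Around these genes, 9 lists of 179 textbook genes of the pathway were counted, of which 107 were in the table and 102 were tested. Of the 102, 30 rose and 7 fell at an adjusted p below 0.05 (limma, over all 10469 genes), which is 36.3% against 28.8% of all genes tested. No set test was made, and the median log2 difference of all genes tested was 0.01. The lists are knowledge-based but were drawn up with earlier results of these data known.

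Of 24 tested receptors and adaptors upstream of IKK 5 rose, none fell and 19 did not pass (median log2 difference 0.10). The share called, 20.8%, was below the 28.8% of all genes tested. TNFRSF1A, the main receptor of tumour necrosis factor, had 23.6, 20.04 and 18.7 FPKM with doxycycline, against 9.75, 9.06 and 8.22 FPKM with vehicle. The lowest doxycycline library was well above the highest vehicle library, and the log2 fold change was 1.12 (SE 0.10, limma adjusted p = 0.000528). IRAK2, a kinase-like adaptor of interleukin 1 and Toll-like receptors, rose to 22.3 ± 1.17 FPKM with doxycycline, against 13.4 ± 1.17 FPKM with vehicle (adjusted p = 0.00106). TRAF3, which restrains non-canonical signalling, averaged 3.23 ± 1.18 FPKM with doxycycline and 1.44 ± 0.133 FPKM with vehicle (adjusted p = 0.0290). Doxycycline replicate 1 had 4.57 FPKM of TRAF3 and the other 2 had 2.73 and 2.37 FPKM. The TRAF3 call was lost in a fit with a replicate block (adjusted p = 0.0640) and without vehicle replicate 1, 2 or 3 (0.0860, 0.0678 and 0.0747) or doxycycline replicate 2 (0.0541), all by limma. The other members that rose were TRAF2 and RIPK1, of the same receptor complex, at 1.31 and 1.28 times the vehicle mean, chosen after their values were seen. The count of genes that fell was 1 without vehicle replicate 2 (IRAK4), without doxycycline replicate 1 (BIRC2) or without doxycycline replicate 2 (IL1R1), likewise named after their values were seen.

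Of the 9 tested core genes of IkB, IKK and Rel proteins, 2 rose and none fell (median 0.20), and both encode IKK subunits. The share called, 22.2%, was below the 28.8% of all genes tested. Another IKK gene of the list, IKBKB, named after its values were seen, did not pass (log2 difference 0.01, limma adjusted p = 0.921). CHUK, the kinase subunit IKKα, was at 13.3 ± 0.267 FPKM with doxycycline and 10.9 ± 0.651 FPKM with vehicle (limma adjusted p = 0.00954). IKBKG, the regulatory subunit NEMO, was at 4.97 ± 0.341 FPKM with doxycycline and 3.61 ± 0.415 FPKM with vehicle (adjusted p = 0.0199), a call that ended without doxycycline replicate 2 (0.0634) or 3 (0.0647). RELA, the main activating subunit, did not pass, at 6.48, 4.55 and 7.998 FPKM with doxycycline against 4.80, 4.06 and 4.65 FPKM with vehicle (adjusted p = 0.153). Doxycycline replicate 2 lay within the vehicle range of RELA, and without that library the adjusted p was 0.0195. REL was at 2.48, 2.38 and 1.22 FPKM with doxycycline and 1.45 to 1.498 FPKM with vehicle (adjusted p = 0.311, or 0.00493 without doxycycline replicate 3). RELA and REL were singled out after their values were seen.

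Other inhibitors of the pathway moved in both directions. Of 13 tested, 3 rose and 2 fell (median 0.07), a share of 38.5% against 28.8% of all genes tested. SOCS1, a suppressor of cytokine receptor signalling, fell to 1.16, 1.09 and 1.07 FPKM with doxycycline, against 2.59, 2.22 and 3.09 FPKM with vehicle (limma adjusted p = 0.00190). USP18, an interferon-induced protease that removes ISG15, fell to 2.91 ± 0.257 FPKM with doxycycline, against 5.46 ± 0.108 FPKM with vehicle (adjusted p = 0.000466). TAX1BP1, an adaptor through which A20 acts, rose to 30.9 ± 3.20 FPKM with doxycycline, against 19.5 ± 2.23 FPKM with vehicle (adjusted p = 0.00554). Its partner in the A20 complex RNF11, named after its values were seen, was at 20.6 ± 1.16 FPKM with doxycycline and 15.9 ± 0.412 FPKM with vehicle (adjusted p = 0.00338). Other proteins known to act with A20 did not pass, among them TNIP1 (log2 difference 0.29, adjusted p = 0.0964), ITCH (0.35, adjusted p = 0.240) and TNIP2 (0.14, adjusted p = 0.627), also named after their values were seen.

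**Figure D3:**
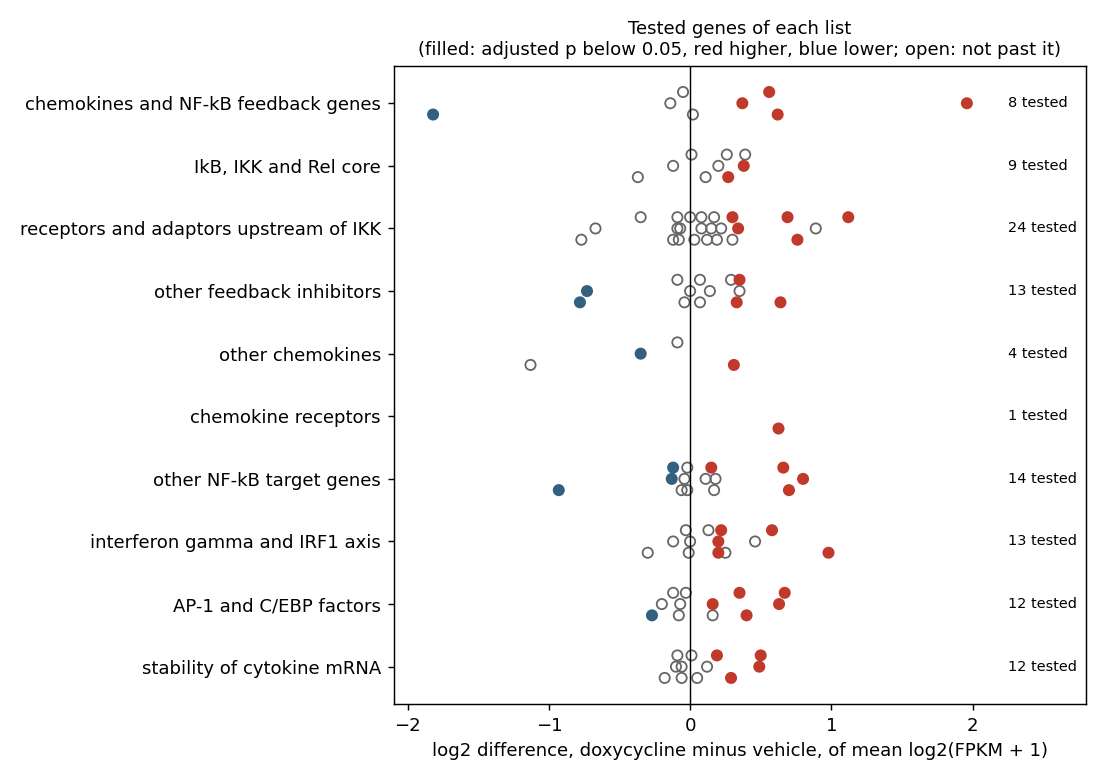
Log2 difference (doxycycline minus vehicle, horizontal axis) of each tested gene of the 9 pathway lists and, in the top row, of the 8 tested chemokine and feedback genes, with filled circles past an adjusted p of 0.05. Most filled circles lie to the right, 30 higher and 7 lower in the 9 lists, and CXCL8 at 1.96 and CCL20 at -1.82 lie farther from 0 than any gene of the lists.

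Few other chemokines were listed. Of 25 other chemokine genes 4 were in the table, and of these 1 rose and 1 fell. Of all genes tested 28.8% were called, and with only 4 chemokine genes nothing is read from the share. CCL15, a liver chemokine that acts on CCR1, was at 25.1, 24.2 and 25.4 FPKM with doxycycline, against 19.7, 19.4 and 20.7 FPKM with vehicle (limma adjusted p = 0.00226). CCL16, also made by liver, was at 5.74, 5.90 and 6.60 FPKM with doxycycline, against 8.35, 7.28 and 8.40 FPKM with vehicle (adjusted p = 0.0173). The CCL16 call ended, and the count that fell became 0, without vehicle replicate 1 (0.0572) or 3 (0.0572) or doxycycline replicate 1 (0.0558) or 2 (0.0565). CX3CL1, the membrane-bound fractalkine, named after its values were seen, was at 2.08, 6.27 and 1.72 FPKM with doxycycline against 11.7, 3.33 and 10.7 FPKM with vehicle, and replicate 2 of each group lay within the range of the other (adjusted p = 0.175).

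Of 22 chemokine receptors 2 were in the table, and 1 of them, CCR6, was tested. CCR6, the receptor of CCL20, rose to 17.2, 18.4 and 19.1 FPKM with doxycycline, against 11.4, 11.3 and 11.6 FPKM with vehicle. The groups did not overlap, with a ratio of means of 1.59 and a log2 fold change of 0.62 (SE 0.05, limma adjusted p = 0.000269). Ligand and receptor mRNA of this pair thus differed in opposite directions between the groups. CXCR1 and CXCR2, the receptors of interleukin 8, were not analysed here.

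Of 14 other NF-kB target genes tested, 4 rose and 3 fell (median 0.05). The share called was above the 28.8% of all genes tested, of which 15.2% rose and 13.6% fell. BCL2L1, an inhibitor of apoptosis, rose to 105, 105 and 108 FPKM with doxycycline, against 61.04, 57.9 and 62.5 FPKM with vehicle (limma adjusted p = 3.86e-05). PLAU, the urokinase plasminogen activator, rose to 1.67 ± 0.267 FPKM with doxycycline, against 0.640 ± 0.135 FPKM with vehicle (adjusted p = 0.00372). PLAU reached the minimum mean of 1 FPKM only through the doxycycline libraries. So did CSF1, which rose from 0.823 FPKM with vehicle to 1.89 FPKM with doxycycline. IL32 also rose, but its call was lost under the replicate block (limma adjusted p = 0.0746). The IL32 call also ended without vehicle replicate 1 (0.0786) or 3 (0.0866) or doxycycline replicate 2 (0.071) or 3 (0.0822). CSF1 and IL32 were named after their values were seen. CFB, complement factor B, fell to 2.85 ± 0.114 FPKM with doxycycline, against 6.38 ± 1.12 FPKM with vehicle (adjusted p = 0.00178). The classical adhesion target ICAM1, singled out after its values were seen, stayed at 35.8 to 36.1 FPKM with doxycycline and 36.1 to 37.5 FPKM with vehicle (adjusted p = 0.380). Its groups overlapped only in that doxycycline replicate 3 (36.074 FPKM) was just above vehicle replicate 2 (36.071 FPKM). The tumour necrosis factor gene TNF, also singled out afterwards and under the minimum mean for testing, was at 0.570, 0.489 and 0.519 FPKM with doxycycline against 0.144, 0.195 and 0.0807 FPKM with vehicle. The number that fell was 1 under quantile normalization or without the variance trend, where the calls of C3 and IER3 ended.

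AP-1 and C/EBP factors are known to act with NF-kB at the CXCL8 promoter. Of 12 tested, 5 rose, 1 fell and 6 did not pass (median 0.06). The share called was above the 28.8% of all genes tested, of which 15.2% rose and 13.6% fell. Whether these factors had a part in the CXCL8 difference was not tested. FOSL2 was at 12.1, 11.2 and 11.6 FPKM with doxycycline, against 6.27, 7.69 and 6.98 FPKM with vehicle (limma adjusted p = 0.00131). FOSL1, like FOSL2 a Fos-related partner of Jun proteins, rose to 9.01 ± 0.541 FPKM with doxycycline, against 5.46 ± 0.164 FPKM with vehicle (adjusted p = 0.000480). JUN rose to 25.7 ± 1.53 FPKM with doxycycline, against 19.3 ± 0.129 FPKM with vehicle (adjusted p = 0.00181). CEBPB and CEBPG, named after their values were seen, also rose. CEBPB was at 46.8 ± 3.27 FPKM with doxycycline and 36.4 ± 0.657 FPKM with vehicle (limma adjusted p = 0.00456). For CEBPG the means were 17.1 ± 0.814 FPKM with doxycycline and 15.2 ± 0.259 FPKM with vehicle (adjusted p = 0.037). The CEBPG call ended under quantile normalization (0.0582), the replicate block (0.0874) and most fits with a library left out. The factor that fell was CEBPD, named after its values were seen, at 12.3 ± 0.841 FPKM with doxycycline and 14.9 ± 0.504 FPKM with vehicle, and this count became 0 when vehicle replicate 3 was left out (adjusted p = 0.0532), as it did when doxycycline replicate 2 (0.0531) or 3 (0.0519) was.

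Genes of the interferon gamma and IRF1 axis included 13 that were tested, of which 5 rose, none fell and 8 did not pass (median 0.20). The share called was 38.5%, against 28.8% of all genes tested. TAP1, PSMB8 and PSMB10, named after their values were seen, did not pass (limma adjusted p = 0.208, 0.975 and 0.91). GBP2, a guanylate-binding protein induced by interferon gamma, rose to 1.85, 2.33 and 2.17 FPKM with doxycycline, against 0.658, 0.511 and 0.577 FPKM with vehicle (limma adjusted p = 0.000340). With a vehicle mean of 0.582 FPKM, GBP2 reached the minimum mean of 1 FPKM for testing only through the doxycycline libraries. IFNGR1, the ligand-binding chain of the interferon gamma receptor, rose to 71.6 ± 2.34 FPKM with doxycycline, against 47.6 ± 0.964 FPKM with vehicle (adjusted p = 0.000108). IRF3, a factor of the antiviral response, was at 8.36 ± 0.275 FPKM with doxycycline and 7.06 ± 0.255 FPKM with vehicle (adjusted p = 0.0161, and 0.0509 without vehicle replicate 3). The number that rose was 3 without vehicle replicate 3 or without doxycycline replicate 2.

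Genes that govern the stability of cytokine mRNA included 12 that were tested, of which 4 rose and none fell (median 0.03). The share called was 33.3%, against 28.8% of all genes tested. MAPKAPK2, the kinase MK2 that stabilises AU-rich transcripts such as that of CXCL8, had 16.5, 16.6 and 16.5 FPKM with doxycycline, against 11.1, 11.4 and 11.98 FPKM with vehicle (limma adjusted p = 0.000337). ZFP36L1, which promotes decay of such transcripts, rose to 24.4 ± 2.78 FPKM with doxycycline, against 16.9 ± 1.37 FPKM with vehicle (adjusted p = 0.0101). DUSP1, a phosphatase of p38 kinase, was at 15.5 ± 1.61 FPKM with doxycycline and 12.5 ± 0.463 FPKM with vehicle (adjusted p = 0.0359). The DUSP1 call ended under the replicate block (0.0537) and without any vehicle library (0.103, 0.0875 and 0.0693 for replicates 1, 2 and 3) or without doxycycline replicate 1 (0.0996) or 3 (0.0821), and each of these left 2 genes higher in place of 4. Without vehicle replicate 2, ZFP36 fell (limma adjusted p = 0.0140, 1 gene lower), named after its values were seen.

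**Figure D4:**
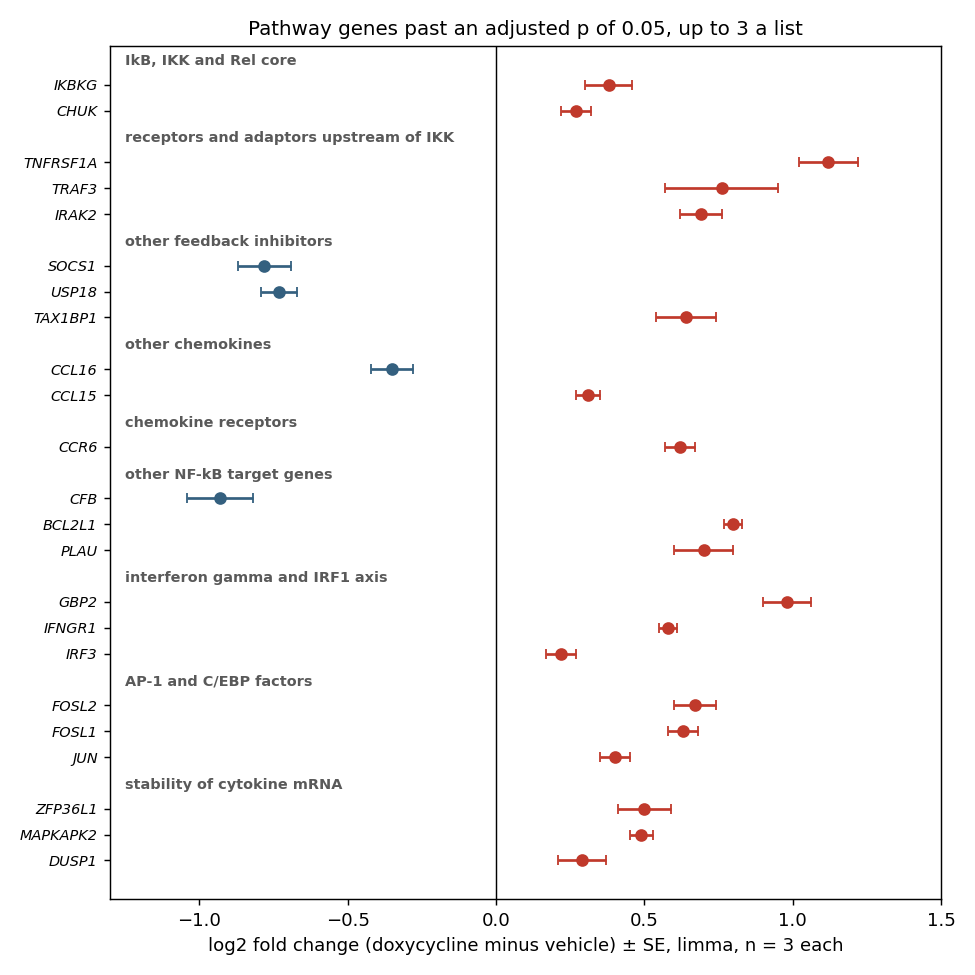
Log2 fold change ± SE (limma, horizontal axis, n = 3 libraries per group) of up to 3 genes of each pathway list past an adjusted p of 0.05. TNFRSF1A at 1.12 and GBP2 at 0.98 have the largest increases shown, and CFB at -0.93 and SOCS1 at -0.78 the largest decreases. GBP2 and PLAU reached the minimum mean of 1 FPKM for testing only through the doxycycline libraries.

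The genes whose pattern over the 6 libraries lay nearest to that of CXCL8 were NRP2, MASP1 and ATOH8, by the root mean square difference of log2(FPKM + 1) after subtraction of each gene's vehicle mean. That difference was 0.161 for NRP2, a co-receptor of semaphorins, 0.176 for MASP1, a protease of the lectin complement pathway, and 0.200 for ATOH8, a transcription factor. ATOH8 was at 4.69, 4.54 and 4.89 FPKM with doxycycline, against 0.591, 0.683 and 0.672 FPKM with vehicle. Nearest to CCL20 were APOA1 (0.0473), the main protein of high-density lipoprotein, APOM (0.0699), another apolipoprotein, and SERPINA6 (0.0768), the corticosteroid carrier of plasma. APOA1 was at 88.2, 81.7 and 86.8 FPKM with doxycycline, against 314, 284 and 284 FPKM with vehicle, so its ratio, 3.44-fold lower with doxycycline, was close to the 3.60 of CCL20.

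Of the listed neighbours of CXCL8, the 3 that were tested, ANKRD17, ALB and AFP, all fell, where 13.6% of all genes tested fell. ALB and AFP had doxycycline means of 0.373 and 0.320 FPKM. They thus reached the minimum mean of 1 FPKM only through the vehicle libraries, and a change shared along the locus was not tested. Within 500 kb of CXCL8 the table listed ANKRD17, ALB, AFP, RASSF6 and MTHFD2L, chosen by position after the values were known. AFP, the gene of alpha-fetoprotein, 284 kb away on the same strand, was at 0.335, 0.249 and 0.376 FPKM with doxycycline, against 6.13, 6.31 and 5.59 FPKM with vehicle. RASSF6, the nearest listed gene at 119.9 kb and under the minimum mean for testing, was at 0.590, 0.729 and 0.539 FPKM with doxycycline against 0.412, 0.441 and 0.4001 FPKM with vehicle. The RASSF6 values of the groups did not overlap. ANKRD17 averaged 16.9 ± 0.529 FPKM with doxycycline and 19.5 ± 0.904 FPKM with vehicle, and MTHFD2L, which was not tested, overlapped between the groups. Near CCL20, AGFG1 and MFF were listed within 500 kb, and both overlapped between the groups.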

How the data were processed

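Expression was measured by strand-specific sequencing of oligo(dT)-selected RNA in 6 HepG2-hCAR libraries, 3 per group. The authors deposited FPKM per gene, 1 column per library. FastQC, cutadapt, HISAT2, StringTie and build GRCh37 are named per the submitters' processing notes, and versions and options are not given in the sources used here. Of 11461 entries, 5 symbols had 2, and the entry with the higher mean was kept. The larger group mean was at least 0.500 FPKM for every entry, so weakly expressed genes were not analysed here. Genes with a mean of at least 1 FPKM (10469) were log2-transformed after adding 1 and fitted with limma 3.58.1 (R 4.3.3), group as the only term, variance trend, two-sided, Benjamini-Hochberg adjusted over all of them. Fold changes on this scale understate changes of weakly expressed genes. The script was tested on simulated data.

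Members and lists were chosen with earlier results of these data known. Named are the members, up to 3 called genes per list without overlap and with the largest change, the 3 genes nearest in pattern to CXCL8 and to CCL20, and NR1I3. Promoters are from RefSeq (GRCh38.p14), whose coordinates were not compared with GRCh37. Alternatives were other pseudocounts, filters, scalings, variance settings, a replicate block, summed entries, a threshold of 0.01 and leaving out each library. Figures were drawn with matplotlib 3.10.9.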

Additional observations from a re-analysis of the deposited data

How the results depend on the processing

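The log2 difference of CXCL8 was 2.44 with a pseudocount of 0.1 and 2.20 with 0.5, against 1.96 with 1, and it was 1.87 to 2.08 with a library left out. That of CCL20 was -1.84 to -1.78 over all alternatives. An adjusted p below 0.01 left 1636 genes called, 875 higher and 761 lower. With a minimum mean FPKM of 5 fewer genes were tested, and the counts were 1 higher in the IkB, IKK and Rel core, 0 lower among other feedback inhibitors and 2 higher among other NF-kB targets. Without a filter 1 chemokine receptor, CCR10, was lower (limma adjusted p = 0.015). In that fit TNF (0.00318) and TLR6 (0.0045), named after their values were seen, were higher. All of them had a mean under 1 FPKM. Other NF-kB targets lower numbered 1 under quantile normalization and 1 without the variance trend, and the cause was not tested. The labels give both groups the replicate numbers 1 to 3 and do not state whether same-numbered libraries were paired. Deviations of same-numbered libraries correlated at 0.01, -0.03 and 0.09. No shared deviation was thus seen, which cannot settle whether the libraries were prepared in pairs. A fit with the replicate block called 2343 genes and left 2 genes higher in the list on cytokine mRNA stability.

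With 1 library left out, the counts ranged from 0 to 1 lower among upstream receptors and adaptors, 0 to 1 lower among other chemokines, 3 to 5 higher in the interferon gamma and IRF1 axis, 0 to 1 lower among AP-1 and C/EBP factors, and, for cytokine mRNA stability, 2 to 3 higher and 0 to 1 lower. Small counts limit these lists, and no counts of reads were used to set a precision for genes near 1 FPKM such as IRF1, BIRC3 and CXCL8 in vehicle cells.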
